A study of Mus musculus with 6 samples.

Results

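The genes described here are the receptor chains through which hepatocytes receive the inflammatory cytokines interleukin-1 (IL-1), the interleukin-6 (IL-6) family and tumour necrosis factor (TNF). They are Il1r1, Il1rap and Il1rn of the IL-1 system, Il6ra, Il6st, Lifr and Osmr of the IL-6 family, Tnfrsf1a and Tnfrsf1b for TNF, and the transcription factor Stat3 that the IL-6 family activates. They were chosen by name, 10 of the 20416 genes on the array, and all 10 were measured. The mice were C57BL/6 adults, 3 that carried miR-143 under doxycycline control (miR-143DOX) and 3 wildtype littermates (control), and hepatocyte RNA of each was put on 1 Affymetrix array. Both groups drank doxycycline at 4 mg/ml in 10% sucrose for 8 days, so the controls had the drug without the transgene, and no group went without the drug. The series is titled for hepatocytes of miR-143DOX mice, and the comparison asks which transcripts differ once this microRNA, a short RNA that represses transcripts it pairs with, is induced. The promoter and the cell types that drive the transgene are not given in the sources used here, and miR-143 abundance was not analysed here.

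In the liver these receptors turn cytokines, largely made by macrophages, into the acute phase response, in which hepatocytes secrete defence and clotting proteins into the plasma. IL-1 binds the Il1r1 chain, which then recruits the accessory chain Il1rap and activates NF-kB. The IL-6 family receptors pair another chain (Il6ra, Lifr or Osmr) with the shared signalling chain gp130, encoded by Il6st, whose kinases phosphorylate STAT3. TNF binds a receptor with a death domain, Tnfrsf1a, and a receptor without one, Tnfrsf1b.

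In miR-143DOX hepatocytes Il1r1, Lifr, Il6ra and Tnfrsf1b lay lower than in control, by 0.73, 0.65, 0.46 and 0.42 on the log2 scale (the control mean was 1.66, 1.57, 1.37 and 1.34 times the miR-143DOX mean). The other 6 genes differed by at most 0.17 in either direction. No gene passed a 5% false discovery rate (FDR) in limma's moderated test, whose adjusted p was 0.9997 for each of the 10. The FDR was taken over all 15312 genes tested, of which 0 passed as well (0% called). At an unadjusted p under 0.05 the count was 4 of the 10, all 4 lower, against 1.68% of all genes tested that were lower by that rule and 3.06% in either direction. For Il1r1, Il6ra and Tnfrsf1b all 3 miR-143DOX values lay under all 3 control values, as for 3.73% of all genes (3.4% had the groups apart the other way, 7.13% either way). None of the 10 was higher at p under 0.05, against 1.38% of all genes. The median difference of the 10 genes was -0.14 (8 below 0), against 0.01 for all genes tested, of which 47.6% lay below 0. Leaving out control replicate 3 moved that median to -0.06, and leaving out miR-143DOX replicate 3 moved it to -0.24. When a gene was taken as the median rather than the mean of its probe sets, the count at p under 0.05 was 1, Lifr. Lifr in turn was the gene lost, leaving 3, with the brightest probe set, with an intensity trend and robust prior, and when any 1 of 3 mice was left out (control replicate 2, or replicate 1 or 2 of miR-143DOX). These genes were chosen with earlier results of the same data known, so their share is a description of them.

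**Figure D1:**
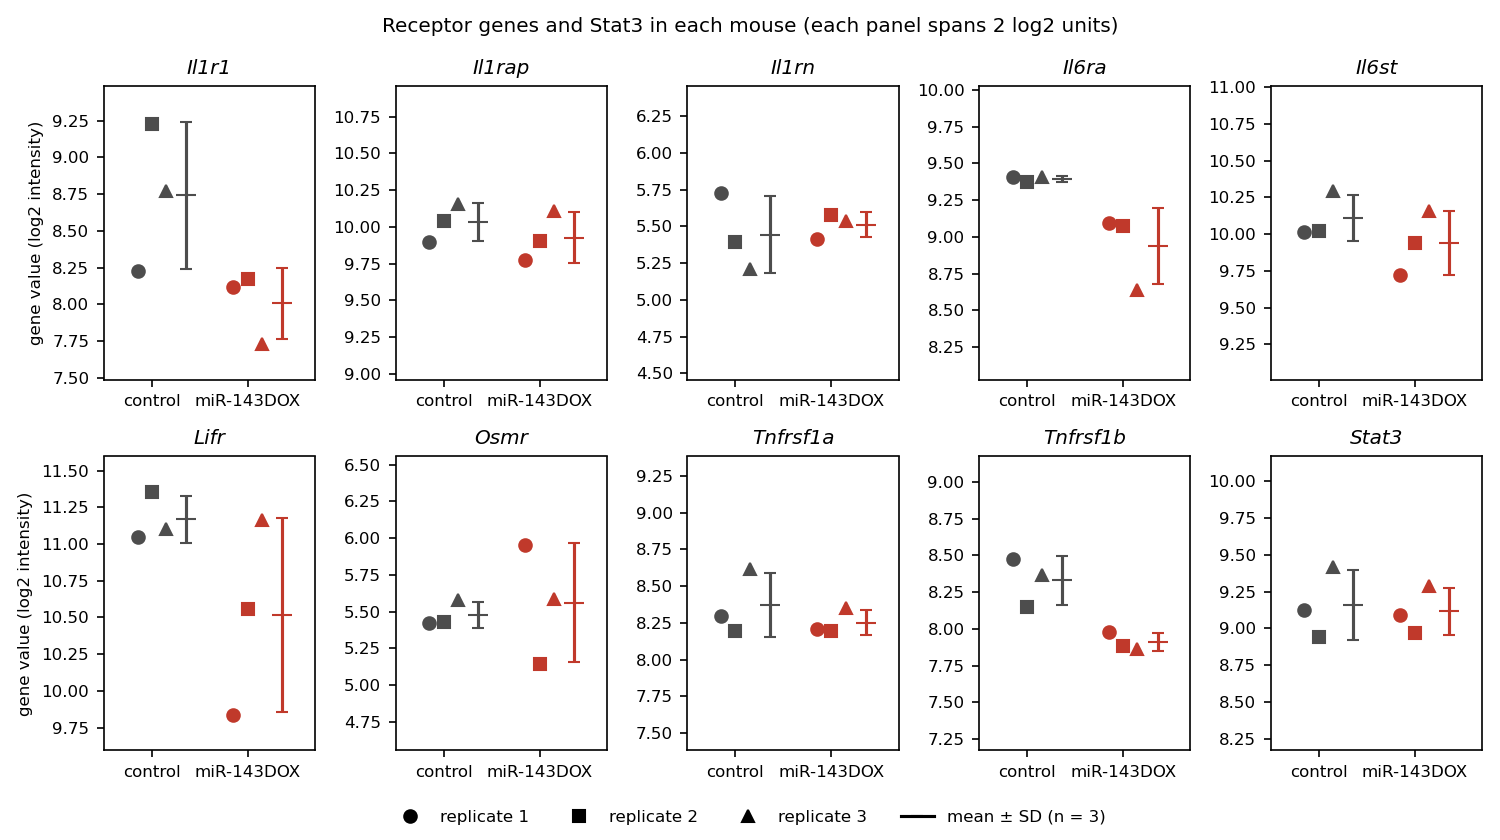
Gene values (y axis, log2 intensity) of the 10 genes in each mouse, with control in grey and miR-143DOX in red, a symbol per replicate number, and the mean ± SD beside the points (n = 3). The groups are apart for Il1r1, Il6ra and Tnfrsf1b, and for Lifr 1 miR-143DOX mouse lies among the controls.

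**Figure D2:**
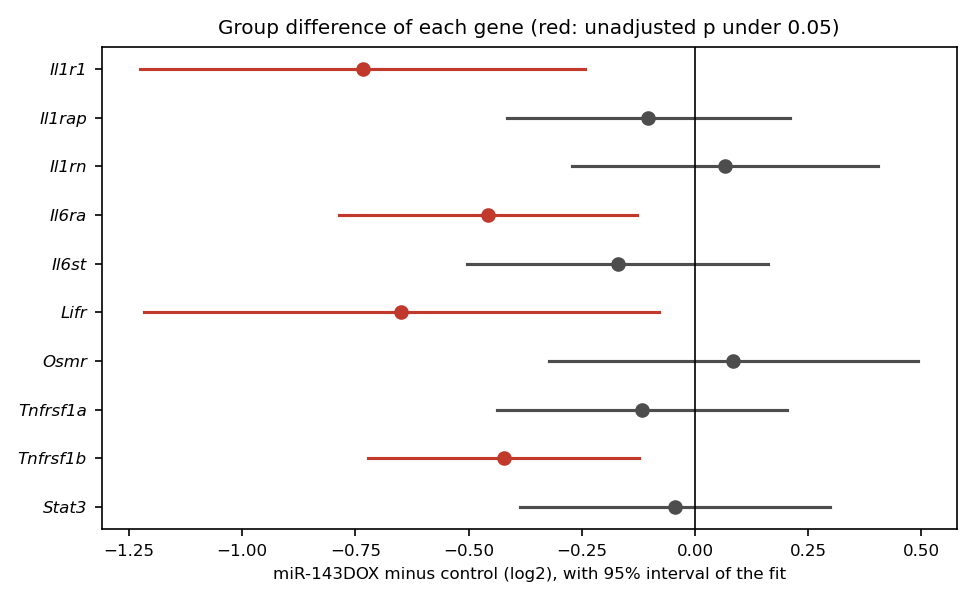
Difference of the group means (x axis, log2, miR-143DOX minus control) for each gene, with the 95% interval of the limma fit as a line. The intervals of Il1r1, Il6ra, Lifr and Tnfrsf1b lie below 0 and those of the other 6 genes span 0, before any adjustment for the number of genes.

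The stretches of genome just before the transcription starts of the genes set apart between the groups are given here, with Tnfrsf1a as the other TNF receptor, so that the genes can be seen beside their values. They are the 250 bases before annotated RefSeq starts in mouse build GRCm38.p6, 5′ to 3′ on the gene's strand. Il1r1 has an upstream start (chr1:40224830-40225079, plus strand) and a downstream one (chr1:40266336-40266585, plus strand). The Il6ra stretch is chr3:89913197-89913446 (minus strand), that of Tnfrsf1b chr4:145246871-145247120 (minus strand) and that of Tnfrsf1a chr6:125349473-125349722 (plus strand). Capitals mark matches to TTCNNNGAA, the spacing that STAT factors bind, or to TTNNGNAAT on either strand, a form of the C/EBP element known from acute phase genes.
Il1r1 upstream start: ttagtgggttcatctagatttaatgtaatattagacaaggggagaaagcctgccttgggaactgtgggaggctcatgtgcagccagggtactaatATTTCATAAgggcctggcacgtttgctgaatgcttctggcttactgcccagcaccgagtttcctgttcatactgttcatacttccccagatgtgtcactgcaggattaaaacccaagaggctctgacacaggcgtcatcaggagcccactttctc
Il1r1 downstream start: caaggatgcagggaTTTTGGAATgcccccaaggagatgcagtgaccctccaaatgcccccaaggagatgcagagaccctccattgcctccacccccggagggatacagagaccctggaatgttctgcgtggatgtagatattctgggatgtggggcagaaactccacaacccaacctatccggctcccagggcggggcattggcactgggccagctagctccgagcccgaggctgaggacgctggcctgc
Il6ra: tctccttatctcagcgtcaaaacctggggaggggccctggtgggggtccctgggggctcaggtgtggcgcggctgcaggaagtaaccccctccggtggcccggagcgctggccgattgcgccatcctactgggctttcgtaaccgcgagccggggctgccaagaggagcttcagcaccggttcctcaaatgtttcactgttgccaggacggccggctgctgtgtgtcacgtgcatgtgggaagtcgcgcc
Tnfrsf1b: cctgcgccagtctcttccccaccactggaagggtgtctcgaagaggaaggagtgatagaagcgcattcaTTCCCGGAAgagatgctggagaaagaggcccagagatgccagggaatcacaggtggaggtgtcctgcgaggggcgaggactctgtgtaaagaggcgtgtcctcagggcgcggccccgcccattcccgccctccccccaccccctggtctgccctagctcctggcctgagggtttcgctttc
Tnfrsf1a: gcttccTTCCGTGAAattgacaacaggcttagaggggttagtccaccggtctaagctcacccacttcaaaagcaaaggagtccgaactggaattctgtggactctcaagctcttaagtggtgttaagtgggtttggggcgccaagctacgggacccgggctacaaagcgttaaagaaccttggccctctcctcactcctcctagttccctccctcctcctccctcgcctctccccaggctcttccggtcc

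The 10 genes have 14 such stretches, 2 of which hold the STAT spacing, those of Tnfrsf1b (TTCCCGGAA, beginning 181 bases before the start) and Tnfrsf1a (TTCCGTGAA, 244 bases before). Of all 32851 stretches of that length in the table, 7.02% hold it. Tnfrsf1b lay lower in miR-143DOX by 0.42 and Tnfrsf1a by 0.12. The C/EBP form is in 3 of the 14, both starts of Il1r1 and 1 start of Il1rn, against 10.2% of all. The NF-kB consensus was in 1 of the 14, the downstream start of Il1r1, where it overlaps the C/EBP match, against 7.25% of all. The stretch of Il6ra held none of them, and its 18 CG dinucleotides compare with a median of 6 over all stretches. A match is a run of letters and was not tested as a binding site.

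Il1r1, the chain that binds IL-1, measured 8.12, 8.17 and 7.73 in the miR-143DOX mice and 8.22, 9.23 and 8.77 in the control mice (log2 intensity, replicates 1 to 3). The highest miR-143DOX mouse and the lowest control mouse were 8.17 and 8.22, so the groups were separate by a narrow gap. The difference was -0.73 with a moderated standard error of 0.22 (95% interval -1.22 to -0.24, limma adjusted p = 0.9997). Here and below, limma draws the variance of a gene toward that of all genes tested. Il1r1 varied more than most (SD 0.24 in miR-143DOX, 0.50 in control), so its interval is narrower than its mice alone give. The difference was -0.49 without control replicate 2, the highest control, and -0.996 without control replicate 1, the lowest. All 13 of its probe sets, each a small group of probes to 1 stretch of the transcript, lay lower in miR-143DOX, by 0.29 to 1.48. The groups overlapped in most of the 13. Control replicate 2 was highest in 10 of the 13 and miR-143DOX replicate 3 lowest in 9.

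Il1rap, the accessory chain that IL-1 signalling needs, measured 9.77, 9.90 and 10.11 in miR-143DOX against 9.90, 10.04 and 10.15 in control. The groups overlapped and the difference was -0.10 with a standard error of 0.14. Il1rn encodes the secreted antagonist that occupies Il1r1 without signalling. It measured 5.41, 5.58 and 5.54 in miR-143DOX and 5.73, 5.39 and 5.21 in control, with a difference of 0.07 (standard error 0.15). These values lie just above 5.06, the level under which genes were left out as dim, and no detection call was made. Of its 11 probe sets 3 fell under the corresponding bound for single probe sets.

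Il6ra, the chain that binds IL-6, was the gene with the tightest controls. The control mice measured 9.40, 9.37 and 9.40, and the miR-143DOX mice 9.10, 9.07 and 8.64. All miR-143DOX mice lay below all controls, and miR-143DOX replicate 3 lay lowest. The difference was -0.46 with a standard error of 0.15 (95% interval -0.79 to -0.13, limma adjusted p = 0.9997), and -0.31 without miR-143DOX replicate 3. Of its 10 probe sets 9 lay below 0, against 49.1% of all probe sets tested. The exception was probe set 10499665 at a difference of 0.11, with miR-143DOX replicate 2 highest at 9.77.

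Il6st, the shared gp130 chain, measured 9.73, 9.94 and 10.15 in miR-143DOX against 10.02, 10.02 and 10.29 in control. The groups overlapped, at a difference of -0.17 (standard error 0.15), although 17 of its 18 probe sets lay below 0. Its probe sets differed by at most 0.33, so the shift was small along the whole transcript.

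Lifr pairs with gp130 to receive leukaemia inhibitory factor, and was the gene with the widest spread in miR-143DOX. These mice measured 9.84, 10.56 and 11.16, against 11.05, 11.35 and 11.10 in control. A pair of miR-143DOX mice lay below every control and the third lay among them. The difference was -0.65 with a moderated standard error of 0.26 (95% interval -1.22 to -0.08, limma adjusted p = 0.9997). The SD was 0.66 in miR-143DOX and 0.16 in control (n = 3 each), so this interval is narrower than these mice alone give. Leaving out miR-143DOX replicate 1 gave -0.31, and leaving out replicate 3 of that group gave -0.97. All 21 of its probe sets lay lower in miR-143DOX, by 0.30 to 1.15, and miR-143DOX replicate 1 was the lowest mouse in 21 of the 21.

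Osmr, the receptor chain for oncostatin M, measured 5.95, 5.14 and 5.59 in miR-143DOX against 5.42, 5.43 and 5.58 in control. It differed by 0.08 (standard error 0.19), and 8 of its 19 probe sets lay below 0. Like Il1rn it was near the dim bound, and 7 of its probe sets were under it.

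Tnfrsf1b, the TNF receptor without a death domain, measured 7.98, 7.88 and 7.87 in miR-143DOX and 8.48, 8.15 and 8.37 in control. The miR-143DOX mice lay close together and all below the controls. The difference was -0.42 with a standard error of 0.14 (95% interval -0.72 to -0.12, limma adjusted p = 0.9997), and it lay between -0.51 and -0.35 with each mouse left out in turn. Of its 12 probe sets 11 lay below 0. Tnfrsf1a, the receptor with the death domain, measured 8.21, 8.20 and 8.35 in miR-143DOX against 8.30, 8.19 and 8.61 in control, with overlapping groups and a difference of -0.12 (standard error 0.15).

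Stat3, which carries the signal of gp130 to the nucleus, measured 9.09, 8.97 and 9.29 in miR-143DOX and 9.12, 8.94 and 9.42 in control. The difference was -0.04 (95% interval -0.39 to 0.30), and its 30 probe sets lay on both sides of 0, with 20 below and 10 above.

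The 10 genes had 162 probe sets, of which 151 were bright enough to be tested among 176154 in all. None of the 151 passed 5% FDR in limma, as for all probe sets tested (0% called). At an unadjusted p under 0.05, Il1r1 had 4 of 13 lower, Tnfrsf1b 4 of 11, Il6ra 3 of 10 and Lifr 3 of 21. Osmr had 1 of 12 higher, and the other 5 genes had none. Over all probe sets, 2.19% were lower and 1.99% higher by that rule (4.18% in all), and 49.1% lay below 0. Probe sets of 1 gene share its RNA and are not replicates. Whether the group difference was unequal along a gene, as a change of isoform would give, was asked with limma's diffSplice over 16160 genes, of which 0.0371% passed 5% FDR. It called 0 of the 10 genes, and at an unadjusted p under 0.05 again 0, against 4.41% of all genes. The smallest diffSplice p of the 10 was 0.206, for Il1rn.

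**Figure D3:**
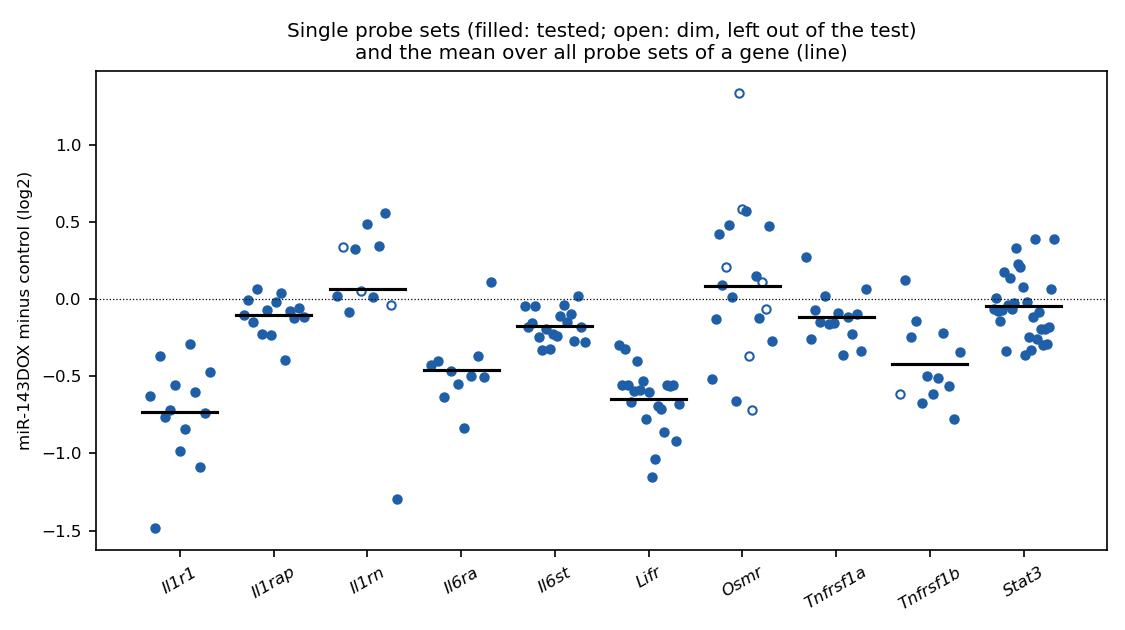
Difference of each probe set (y axis, log2, miR-143DOX minus control) for the 10 genes, filled where tested and open where dim, with the mean over a gene's probe sets as a line. The 13 probe sets of Il1r1 and the 21 of Lifr all lie below 0, while those of Osmr and Il1rn scatter from under -0.7 to over 0.5.

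Partner chains of a receptor (Il1r1 with Il1rap, Il6ra with Il6st), the TNF receptors, and the chains Osmr and Lifr that each pair with gp130 were also compared with each other within each mouse, as the difference of their log2 values. This asks for unequal change, in 4 pairs, by exact two-sided permutation of the 6 mice, for which 0.1 is the smallest p that 3 against 3 can give. Il1r1 relative to Il1rap was lower by 0.63 in miR-143DOX (exact permutation p = 0.2, 0.267 adjusted over the 4 pairs). Leaving out control replicate 2 gave -0.39, and leaving out replicate 3 of miR-143DOX gave -0.40. Tnfrsf1a relative to Tnfrsf1b was higher by 0.31, and Osmr relative to Lifr by 0.73, at the same p-values. Both came to 0.20 with a mouse left out, the former without control replicate 1 and the latter without miR-143DOX replicate 1. Il6ra relative to Il6st differed by -0.29 (exact permutation p = 0.6, adjusted 0.6), and by -0.03 without replicate 3 of miR-143DOX or -0.47 without its replicate 1. The groups overlapped in all 4 pairs.

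**Figure D4:**
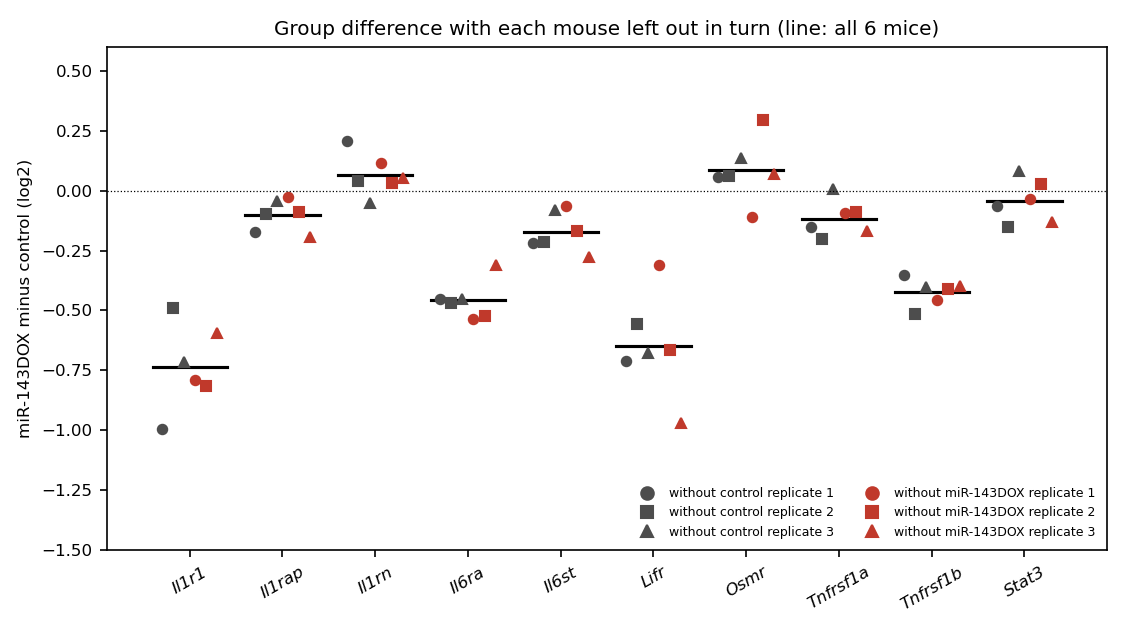
Difference of each gene (y axis, log2, miR-143DOX minus control) with each mouse left out in turn (symbols), beside the value from all 6 mice (line). Il6ra, Il1r1, Tnfrsf1b and Lifr stay below 0 in all 6, and come closest to 0 at -0.31 for Lifr (without miR-143DOX replicate 1) and for Il6ra (without miR-143DOX replicate 3).

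Of 14 genes for ligands of these receptors or of related ones, such as Il18, 13 could be matched and 10 passed the filter on dim genes. The 10 had a median difference of 0.00, with 5 on each side of 0 and 0 at p under 0.05. Il6 itself was under the dim bound, with 3.00 ± 0.14 in the miR-143DOX group and 3.11 ± 0.09 in the control group (SD, n = 3 each). Il1b, the IL-1 ligand made by macrophages, averaged 6.37 ± 0.42 and 6.27 ± 0.36 in these groups, and Tnf 5.31 ± 0.09 and 5.28 ± 0.34. The ligand genes with the smallest p were Lta, Clcf1, Il1a and Osm, with differences of -0.29, 0.21, -0.32 and -0.20.

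Among 15 tested receptor genes of the same families, 7 lay below 0 and 8 above, with a median of 0.05. The receptor chain for IL-11, Il11ra1, also a partner of gp130, measured 6.24, 5.78 and 7.03 in miR-143DOX against 7.03, 7.03 and 7.36 in control. It differed by -0.79, the 1 member of that list lower at p under 0.05 (1.68% of all genes tested). Without miR-143DOX replicate 2 it differed by -0.51 and no longer passed that threshold. It was read by 1 probe set, and a near-identical mouse copy of the gene may share its signal. Tnfrsf21, death receptor 6, measured 6.70, 6.40 and 6.45 in miR-143DOX and 6.14, 6.08 and 6.23 in control. This was the 1 member higher at p under 0.05 (1.38% of all genes tested), with a difference of 0.37. It was 0.10 with its brightest probe set and 0.19 with only probe sets above the table's median, and missed that threshold in both, with the median over probe sets, and with either control replicate 2 or replicate 1 of miR-143DOX left out. Ltbr and Tnfrsf23 differed by -0.26 each. Of 15 other cytokine receptor genes, 12 lay below 0, but their median was -0.04 and 0 reached p under 0.05. Il2rg (mean 5.42, near the dim bound) and Il22ra1 differed by 0.32 and 0.31, and Ifnar1 and Il17ra by -0.21 and -0.18.

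Of the 14 genes of IL-1 receptor signalling, 12 lay above 0 with a median of 0.03 and 0 at p under 0.05, led by the kinase adaptor Tab2 (listed as Map3k7ip2) at 0.28, Nfkbiz at 0.26, Irak3 at 0.15 and Peli2 at -0.09. Of 18 JAK-STAT genes 1 was higher at p under 0.05 and 0 lower (1.38% and 1.68% of all genes tested), with a median of 0.04. That gene was Socs3, the feedback inhibitor that binds gp130 and is itself a STAT3 target, at 7.49, 7.57 and 7.56 in miR-143DOX against 7.12, 7.01 and 6.80 in control. The groups were separate at a difference of 0.56, which was 0.30 with its brightest probe set and then missed that threshold. The 250 bases before its start hold the STAT spacing 154 bases upstream (chr11:117969502-117969530, minus strand), shown with its surroundings for comparison with the TNF receptor genes above.
Socs3: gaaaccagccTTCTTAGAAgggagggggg
Stat2, Stat5a and Jak2 differed by -0.34, 0.29 and 0.21. Of 24 genes of TNF receptor and NF-kB signalling 13 lay below 0, with a median of -0.03 and 0 at p under 0.05. The ubiquitin ligase Birc2, the kinase Ikbkb, the caspase inhibitor Cflar and the NF-kB inhibitor Tnfaip3 differed by -0.37, -0.24, -0.27 and -0.25. Receptors of this kind can be cut from the cell surface. The 7 tested genes of the proteases that do so and of their regulators had a median of -0.03 and 0 at p under 0.05, with Timp3 at -0.25, Nrd1 at -0.14, Rhbdf2 at 0.09 and Rhbdf1 at 0.07.

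Of 41 genes listed as acute phase or downstream of these cytokines, 30 lay below 0, against 47.6% of all genes tested. Their median was -0.12, with 4 lower and 1 higher at p under 0.05 (1.68% and 1.38% of all genes tested). The 4 were Saa2, Saa4, Lcn2 and Serpina3n, which encode secreted proteins, with differences of -0.68, -0.55, -0.55 and -0.38. The 1 was Socs3, counted among the JAK-STAT genes as well. Lcn2 was -0.32 without miR-143DOX replicate 2 and -0.20 with the median over probe sets, and missed p under 0.05 also without control replicate 1 or miR-143DOX replicate 3. Saa4 missed it without miR-143DOX replicate 2 and with the median over probe sets (-0.42 in each). Serpina3n missed it with its brightest probe set (-0.23) and with any 1 of 3 mice left out (control replicate 3, or replicate 1 or 2 of miR-143DOX). Saa2 passed it in every alternative run. Of the other Saa genes listed, Saa1 differed by 0.16 and Saa3 by -0.32, with overlapping groups in both, and they are named here beside Saa2. Serpina3n comes after the 4 smallest p of the list and is named to complete that count. The list holds Il1rn, and its genes had been seen to lie lower before it was drawn up.

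**Figure D5:**
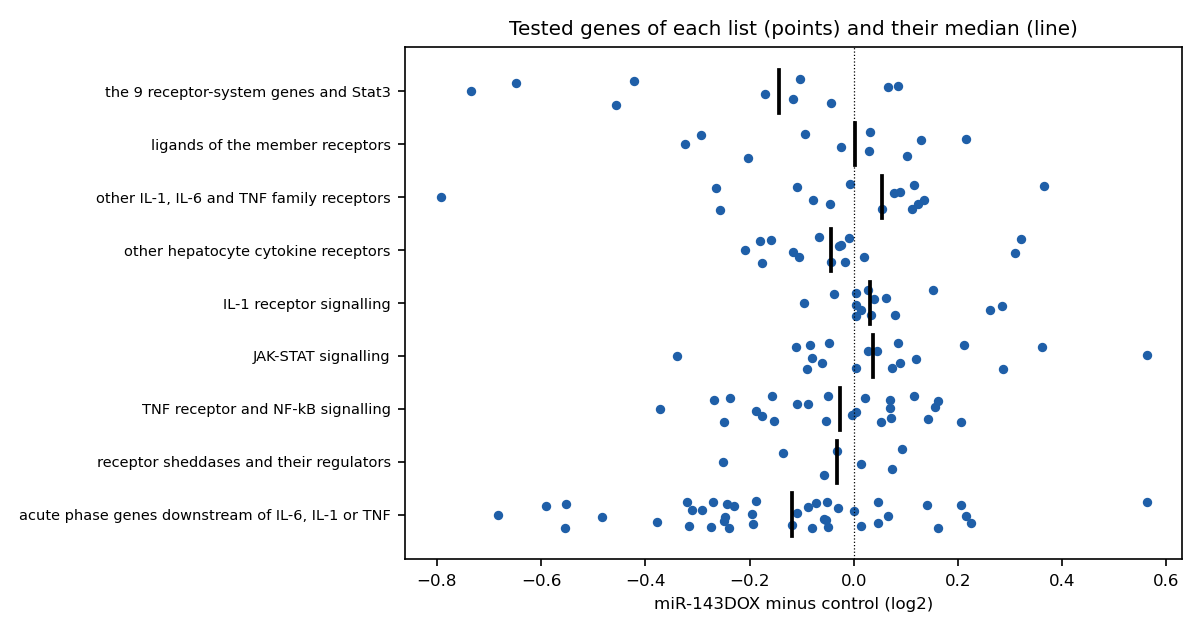
Difference of each tested gene (x axis, log2, miR-143DOX minus control) in each list, with the list median as a line. The medians lie at -0.14 for the receptor genes with Stat3, at -0.12 for the acute phase genes, and between -0.04 and 0.05 for the other 7 lists.

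Some of these receptors are also made by other liver cells, and in bulk RNA fewer cells of a type and less RNA per cell cannot be told apart. Of the hepatocyte markers 16 of 16 lay above the dim bound (median difference 0.01). Markers of other liver cells also passed that bound, so the count does not measure purity. Albumin (Alb) averaged 14.41 ± 0.08 over the miR-143DOX mice and 14.37 ± 0.23 over the controls (SD, n = 3 each), Ahsg 13.80 and 13.90, and Trf 13.79 and 13.77. Of these markers 1 was lower at p under 0.05, Serpina1a (-0.98, groups overlapping; -0.54 without control replicate 3, -0.59 when replicate 1 of miR-143DOX was left out), named to complete that count, whose family has near-identical copies that may share signal. Their summed level spanned 17.08 to 17.19 in miR-143DOX and 17.04 to 17.28 in control. All 14 markers of sinusoidal endothelium, which carries IL-1 receptors, were also above it. Of these, 10 lay below 0 (median -0.10), with Clec4g lower at p under 0.05 (-0.37, but not with control replicate 2 or 3 or miR-143DOX replicate 2 or 3 left out), and Stab2 and Kdr at -0.17 and -0.12. Their summed level spanned 11.17 to 11.61 in miR-143DOX and 11.48 to 11.59 in control (log2 of the summed intensities). All 14 markers of Kupffer cells, the liver macrophages, were above the bound too, with 5 below 0 (median 0.06) and 0 at p under 0.05. Their summed level was 11.78 to 11.95 in miR-143DOX against 11.72 to 11.79 in control. Slc40a1 (mean 10.53) weighs most in that sum, ahead of Vsig4 (8.36). The mean log2 level of the 14 spanned 7.24 to 7.54 in miR-143DOX, with the control span of 7.34 to 7.41 inside it. Slc40a1, Vsig4 and Cd5l, the brightest of them, differed by 0.23, 0.04 and 0.18. Stellate cell markers (13 of 14 above the bound) had a median of 0.04, 0 at p under 0.05 and a summed level of 10.88 to 11.25 against 10.97 to 11.13 in control, with Dcn, Ecm1 and Reln at 0.04, -0.13 and -0.00. Few markers passed the filter for neutrophils (3 of 10), T and NK cells (4 of 10), B cells (3 of 7) and cholangiocytes (4 of 8), with medians of 0.03, 0.05, 0.13 and 0.00. Of these, Spp1 of the cholangiocyte list was lower at p under 0.05 (-0.32), but not with control replicate 2 or 3 or miR-143DOX replicate 2 or 3 left out, and it was 0.21 with its brightest probe set and -0.08 with only probe sets above the table's median. The brightest in each were Camp, Csf3r and Mpo, then Cd8a, Cd3e and Nkg7, then Pax5, Cd79b and Cd22, then Sox9, Spp1 and Krt7. The part of these cells in the values of Il1r1, Il6ra, Lifr and Tnfrsf1b was not tested.

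Across the 6 mice, the genes of the lists whose values followed Il6ra most closely were Tnfrsf1b, Relb and Rela, with Pearson r of 0.82, 0.79 and 0.77 among 148 genes compared. Those nearest to Il1r1 were Relb, Tnfrsf23 and Nfkb1, at 0.84, 0.83 and 0.82. These are the highest of many values over the same 6 arrays, which share the group difference, and they are given as a description. Relb, Rela and Nfkb1, subunits of NF-kB, differed between the groups by -0.18, -0.19 and -0.16.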

How the data were processed

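Per the labels, total RNA of perfused, snap-frozen hepatocytes was extracted with Trizol and labelled for Affymetrix whole transcript arrays. The deposited values are taken as log2 intensities, since they ran from 1.60 to 15.2; Partek is named per the submitters' processing notes, and the sources used here do not give how the authors corrected background, normalized and summarized. The 6 arrays correlated at 0.936 to 0.954, with no identical columns. The 75th and 95th percentiles of the arrays differed by 0.127 and 0.135, over the 0.1 set as the limit, so the values were quantile normalized.

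Of 234873 probe sets, 212097 named 1 gene in the platform annotation, 4475 several and 18301 none. Probe sets naming a gene alone were averaged. The 25% of genes with the lowest mean over the arrays (under 5.06) were left out, 5104 in all, without a detection call. The test was the moderated one of limma 3.58.1 under R 4.3.3, two-sided, with group as the only term and Benjamini-Hochberg adjustment over all genes or probe sets tested. diffSplice takes a gene's probe sets to vary alike. Precision is limited by the number of arrays. The limma standard errors, intervals and p-values rest on the spread between these mice, moderated by the variance of all genes or probe sets tested. The steps were tested on simulated data with changes larger than those of the receptor genes and Stat3. How often changes of their size are found was not tested.

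The genes and all lists were chosen with earlier results of these data known, so no p was adjusted over a list. Of 260 listed genes, 243 were found by symbol, 6 by another symbol and 11 were not used here. Named were the 10 genes, up to 4 genes per pathway list by smallest p, the 3 brightest markers per cell type and the 3 genes nearest to Il6ra and to Il1r1. Promoters came from RefSeq (GRCm38.p6). Alternatives were other scalings, filters, summaries of probe sets and variance models, a block for the replicate number, and leaving out single mice.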

Additional observations from a re-analysis of the deposited data

How the results depend on the processing

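Of 158 differences of the 10 receptor-system genes over 16 alternatives, 9 changed sign and 0 passed 5% FDR; Il1r1, Il6ra, Lifr and Tnfrsf1b kept their sign in all 16. At 5% FDR 0 of the 10 genes and 0 of their probe sets passed under every alternative run, and diffSplice called 0 of the 10 in each setting it was run in. The count at p under 0.05 was 3 or 4 in every alternative but the median over probe sets, where it was 1; with each mouse left out it was 3 to 4, and the lost gene was Lifr. The cause was not tested. The median of the 10 lay between -0.24 and -0.06. All 44 values of chain pairs kept their sign. Il1rn and Osmr dropped out when the lowest 50% of genes were left out, so low signal limits both.

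Signs turned for Il1rap (0.040), Il6st (0.023), Osmr (-0.13), Il1a (0.27), Il2rg (-0.014), Ifnar1 (0.16), Irak3 (-0.61), Peli2 (0.33), Ikbkb (0.15), Timp3 (0.18), Nrd1 (0.036), Relb (0.43), Rela (0.0055) and Spp1 (0.21) with the brightest probe set. They turned for Osmr (-0.0055), Il17ra (0.0043), Nrd1 (0.16), Rhbdf1 (-0.17) and Rela (0.21) with the median over probe sets. With only probe sets above the table's median they turned for Il1a (0.27), Il2rg (-0.014), Irak3 (-0.66), Peli2 (0.076) and Rela (0.025). They turned for Il1rn (-0.050), Tnfrsf1a (0.0053), Stat3 (0.084) and Il1a (0.0052) without control replicate 3, for Peli2 (0.019), Rhbdf2 (-0.059) and Rhbdf1 (-0.013) without control replicate 1, for Osmr (-0.11) without miR-143DOX replicate 1, for Stat3 (0.029) without miR-143DOX replicate 2 and for Osm (0.0075) without miR-143DOX replicate 3. At the other end with a mouse left out stood Osmr at 0.29, Tnfrsf1a at -0.20, Stat3 at -0.15, Il1a at -0.54, Osm at -0.38, Peli2 at -0.16, Rhbdf2 at 0.22 and Rhbdf1 at 0.12.

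Over all genes the count at p under 0.05, 469 as reported, was 1128 without miR-143DOX replicate 3, 298 without miR-143DOX replicate 2, 1021 with array weights and 734 with the replicate block; with fewer genes tested it was 299 (lowest 50% left out) and 279 (only probe sets above the median). The labels' replicate numbers were not taken as pairs in the main fit. Same-numbered mice correlated at 0.107, 0.047 and 0.296, all above 0, in their deviations from the group means. Of the 6 mice 4 correlated best with their own number. Whether same-numbered mice share an effect was not tested. With the replicate block the count at p under 0.05 was again 4 of the 10.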

Other observations

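Il1rap, Il6st, Tnfrsf1a and Stat3 shared their highest mice, 1 from each group. Tnfrsf1a and Stat3 had the same order of all 6 mice. Il1rap and Il6st ordered the remaining mice otherwise, and differently from each other. In all 4, replicate 3 was the highest mouse within the miR-143DOX group and within the control group. Control replicate 3 stood at 10.15, 10.29, 8.61 and 9.42 and miR-143DOX replicate 3 at 10.11, 10.15, 8.35 and 9.29, in that order of genes. Across the 6 arrays Il1rap and Il6st correlated at r = 0.94, and Tnfrsf1a and Stat3 at 0.92, values that share the same arrays and were picked as the highest among all pairs of the 10 genes. Control replicate 3 was the highest mouse in 11 of 18 probe sets of Il6st, 9 of 14 of Tnfrsf1a and 17 of 30 of Stat3, but in 2 of 14 of Il1rap, where miR-143DOX replicate 3 was highest in 6. This pattern was noticed in the values and has no test.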
